A study of Mus musculus with 6 samples.

Results

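Methylation of lysine 9 of histone H3 (H3K9) marks silent chromatin, and 10 genes that write, recruit or read this mark were examined in mouse oocytes with and without normal Brwd1. They are the H3K9 methyltransferase genes Setdb1, Setdb2, Suv39h1, Suv39h2, Ehmt1 and Ehmt2, the corepressor gene Trim28, and the heterochromatin protein 1 (HP1) genes Cbx1, Cbx3 and Cbx5. They were taken as a list of known genes, though with earlier results of these data known. Of the 10, 9 had a probe set annotated to that gene alone, out of 19938 genes with such a probe set. Suv39h1 was not analysed here. Where a gene had several probe sets, the one with the highest mean over the 6 arrays stood for it.

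The samples were oocytes at the germinal vesicle stage, the fully grown stage arrested before the first meiotic division, from B6/C3H mice that were either wildtype or homozygous Brwd1 mutants. Females were 2 to 6 months old and all had received 5 IU equine chorionic gonadotropin, which stimulates follicle growth, 44 h before collection. Each group had 3 pools of 100 oocytes, and each pool was hybridised to its own 1-colour array. Whether different pools hold oocytes of different females is not stated, so p-values cover only the spread from pool to pool, which may be technical. The labels also do not say which part of Brwd1 the mutation affects, and no further allele or agent is named.

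As background, SUV39H1 and SUV39H2 place trimethylation on H3K9 at pericentromeric repeats, EHMT1 (GLP) and EHMT2 (G9a) form a dimer that places mono- and dimethylation mainly in euchromatin, and SETDB1 acts at retrotransposons and other sites to which KRAB zinc-finger proteins bring the corepressor TRIM28. The HP1 proteins bind methylated H3K9 through a chromodomain and bind one another and further silencing factors through a chromoshadow domain. In mouse oocytes SETDB1 is known as needed for meiosis and for restraining retrotransposons, and G9a for placing dimethylation of H3K9. BRWD1 itself carries bromodomains, which bind acetylated lysines, and WD repeats.

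Most promoters of the list were rich in CpG, which the arrays did not measure, and 3 of them are printed: that of Suv39h2, whose groups did not overlap, that of its fellow methyltransferase gene Setdb2, whose mean was higher in the mutant, and that of Setdb1, the partner of Trim28. All 10 genes matched the RefSeq promoter table of GRCm38.p6, with 14 start sites. The 250 bases before each start held 7 to 36 CpG dinucleotides, with a median of 23, against a median of 10 over 21263 windows of protein-coding genes and 6 over all 32851 windows, and 1 window, of Cbx5, lay under the protein-coding median. A GC box (GGGCGG, either strand) was found in 12 of the 14 windows, in 42.6% of protein-coding windows and in 32.7% of all windows. A CCAAT box (CCAAT, either strand) was found in 4 of 14, in 35.4% of protein-coding windows and in 33.8% of all windows. A TATA box (TATAAA, either strand) was found in 0 of 14, in 11.6% of protein-coding windows and in 12.4% of all windows. Capitals mark GC boxes and CCAAT boxes, which share no bases here, and each sequence runs 5′ to 3′ and ends at the base before the start.
Suv39h2 (chr2:3474987-3475236, minus strand): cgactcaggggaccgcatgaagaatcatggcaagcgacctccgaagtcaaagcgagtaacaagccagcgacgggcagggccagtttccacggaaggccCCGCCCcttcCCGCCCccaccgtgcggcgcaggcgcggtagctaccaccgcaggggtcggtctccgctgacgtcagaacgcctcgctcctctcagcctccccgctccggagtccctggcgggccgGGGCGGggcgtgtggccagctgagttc
Setdb2 (chr14:59440881-59441130, minus strand): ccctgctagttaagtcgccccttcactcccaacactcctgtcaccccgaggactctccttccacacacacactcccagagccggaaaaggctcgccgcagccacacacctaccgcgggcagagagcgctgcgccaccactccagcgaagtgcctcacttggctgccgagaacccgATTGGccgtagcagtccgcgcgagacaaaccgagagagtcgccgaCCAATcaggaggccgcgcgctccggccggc
Setdb1 (chr3:95357203-95357452, minus strand): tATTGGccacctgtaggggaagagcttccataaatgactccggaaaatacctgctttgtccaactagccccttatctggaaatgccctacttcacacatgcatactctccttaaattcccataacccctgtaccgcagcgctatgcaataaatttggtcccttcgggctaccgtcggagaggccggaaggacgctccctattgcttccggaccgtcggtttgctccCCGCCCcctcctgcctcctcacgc
The Suv39h2 window holds 27 CpG dinucleotides, 3 GC boxes and 0 CCAAT boxes. That of Setdb2 holds 24 CpG dinucleotides, 0 GC boxes and 2 CCAAT boxes, and that of Setdb1 holds 13, 1 and 1. These matches are descriptions of letters and show no binding.

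None of the 9 measured genes passed the test between mutant and wildtype oocytes. In the setting reported, Suv39h2 had the largest difference, a mean 1.09-fold lower in the mutant, and Setdb2 the largest positive one, 1.06-fold. That order depended on the setting, and in some alternatives another gene led: for instance, the largest log2 difference was that of Setdb2 after quantile normalization, 0.15 against -0.086 for Suv39h2, that of Ehmt1 without mutant 1, -0.19, and that of Cbx5 without mutant 2, 0.16. The median log2 difference of the 9, mutant minus wildtype, was -0.063, against 0.013 over all 19938 genes. Over the 9800 genes with a mean above the median level, where 8 of the 9 lie, it was -0.03. The median of the 9 was -0.12 after median centring, -0.031 after cyclic loess, -0.013 after quantile normalization and 0.0033 without wildtype 1. In the same settings the median of all genes was -0.043, -0.0030, 0.0039 and 0.013. Of the 9, 5 means were lower and 4 higher, where 9077 of all 19938 genes were lower and 10655 higher. At a Benjamini-Hochberg adjusted p under 0.05 (limma, all 6 arrays), 0 of 9 passed, where 32 of 23410 probe sets, or 0.137%, and 21 of 19938 genes, or 0.105%, did. The count of 32 fell to 1 probe set, that of Brwd1, with the replicate number as a block, with all probe sets of the table tested, with repeated probe sets counted once, and without wildtype 1, wildtype 2 or mutant 1. At an unadjusted limma p under 0.05 the count was also 0 of 9, against 14.9% of genes. The groups did not overlap at 1 of 9, against 19.8% of genes. The 21 genes that passed differed by at least 0.52, and no measured gene of the list by more than 0.12. The 95% confidence interval lay within 0.5 on either side of 0 for all 9. These values are relative to the other transcripts on each array, so an equal change of all RNA per oocyte could not be seen, and fewer transcripts per oocyte and fewer oocytes holding them cannot be told apart.

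**Figure D1:**
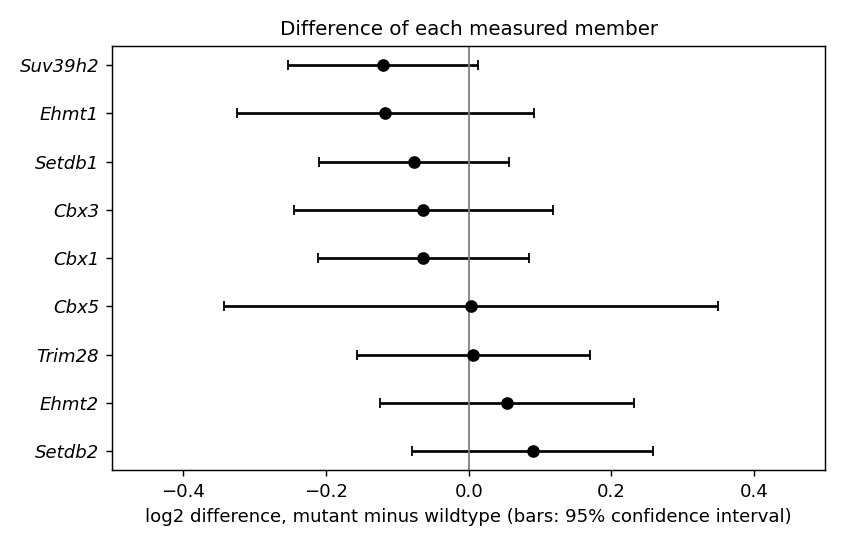
Log2 difference, mutant minus wildtype, of the 9 measured genes (points) with the 95% confidence interval of the limma fit (bars), ordered by size. Every interval includes 0, and the widest, of Cbx5, runs from -0.34 to 0.35.

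The labels were checked by Brwd1, whose log2 level fell from 8.99 ± 0.085 to 4.49 ± 0.075 (SD, n = 3 per group), a difference of -4.50 (SE 0.071; limma, adjusted p = 2.2e-06). As a guide to background, the 95th percentile of 1210 olfactory and vomeronasal receptor probe sets was 4.48, and their median was 3.135. The mutant mean of Brwd1 lay next to this guide, where array values can understate a fall. Whether some Brwd1 transcript remained was not tested. Oocyte markers were far above this guide in all arrays: the mean log2 level over 14 of them was 11.20 to 11.23 in wildtype and 11.22 to 11.23 in mutant samples, led by Ooep, of the maternal complex under the oocyte cortex, and the growth factor gene Gdf9. Markers of granulosa and cumulus cells had means of 5.11 to 5.15 and 5.13 to 5.20, 8 of 13 above the guide, with Nr5a2 and Gata4 highest. Amh, Fshr, Kitl, Ptx3 and Tnfaip6 of that list were below the guide. Markers of theca and stroma had 4.17 to 4.19 and 4.22 to 4.27, 3 of 9 above it, with Col1a1 and Col1a2 highest. Those of blood, immune and endothelial cells had 4.56 to 4.67 and 4.73 to 4.85, 5 of 10 above it, with Pecam1 and C1qb highest. The endothelial markers Cdh5 and Kdr lay near the guide. Means of the last pair of lists did not overlap between groups, and their part in the values below was not tested. In all 3 lists of other cell types 0 genes passed over all probe sets (limma). At an unadjusted limma p under 0.05 there were 3 of 13, 1 of 9 and 2 of 10, against 14.9% of all genes. In the first list these were Has2 at 0.49, Gata4 at 0.29 and Ptgs2 at -0.57. In the second it was Col3a1 at 0.27, and in the last C1qa and C1qb. Of these, Gata4, Ptgs2, Col3a1 and C1qb had groups that did not overlap. Among the last list the macrophage gene C1qb, picked with its values known, had log2 levels of 5.74, 5.76 and 6.49 in wildtype pools and 6.71, 6.92 and 7.06 in mutant pools, a log2 difference of 0.90 (SE 0.210; limma, unadjusted p = 0.00379, adjusted p = 0.162). That is larger than any difference of the list or of the 63 related genes below. The other immune markers differed less: C1qa was at 0.18, Csf1r at 0.19, Adgre1 at 0.067, Ptprc at 0.053, Lyz2 at 0.0033 and Cd68 at -0.070. Of these, Csf1r, Adgre1, Ptprc and Lyz2 had means below the guide.

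Among the methyltransferases of pericentromeric heterochromatin, Suv39h2 was measured at a log2 level of 9.19, 9.29 and 9.26 in wildtype 1, 2 and 3 and at 9.12, 9.11 and 9.15 in mutant 1, 2 and 3. Every mutant sample was below every wildtype sample, by a gap smaller than the range within the wildtype group. The log2 difference was -0.12 (SE 0.056, 95% confidence interval -0.25 to 0.013; limma, unadjusted p = 0.0694, adjusted p = 0.380). Of the 9 genes it was the 1 whose groups did not overlap, a state found with the mutant below at 9.33% of all genes. Its mean was lower in the mutant under each of the 17 alternative settings tried, from -0.18 to -0.086, with limma adjusted p-values of 0.262 to 0.595. The lowest was that after median centring, at -0.18 (SE 0.064; limma, unadjusted p = 0.0269, adjusted p = 0.262). In that setting it was the 1 gene of the 9 with an unadjusted p under 0.05, as were 15.7% of all genes.

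By pattern over the 6 arrays, the genes most like Suv39h2 among 12661 with a mean above the background guide were Zfp870, Arhgap35 and Zfp957. The root mean square distances of their centred log2 values from those of Suv39h2 were 0.014, 0.016 and 0.016. All 3 had mutant samples below the wildtype samples, with log2 differences of -0.11, -0.11 and -0.12 and limma adjusted p-values of 0.393, 0.422 and 0.388. With so many genes and 6 arrays, close matches of this kind are a description only.

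The SETDB genes had means in opposite directions, and neither passed. Setdb1, the methyltransferase that works with TRIM28, was at 9.51, 9.60 and 9.60 on the log2 scale in wildtype pools and 9.47, 9.51 and 9.50 in mutant pools. The groups met at 9.51, where wildtype 1 and mutant 2 had the same value. Its difference was -0.077 (SE 0.056, 95% confidence interval -0.21 to 0.056; limma, adjusted p = 0.567). It was -0.13 after median centring and -0.043 after cyclic loess.

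Setdb2, its relative that also methylates H3K9, was at 7.69, 7.58 and 7.64 in wildtype pools and 7.84, 7.69 and 7.65 in mutant pools. Mutant 1 was above all wildtype samples and the other two lay among them. Its log2 difference was 0.090 (SE 0.071, 95% confidence interval -0.079 to 0.26; limma, adjusted p = 0.599). It was 0.033 without mutant 1 and after median centring, and 0.15 after quantile normalization. Within an array, the log2 gap between Setdb1 and Setdb2 was 1.82, 2.02 and 1.96 in wildtype pools and 1.63, 1.82 and 1.85 in mutant pools. That gap was smaller by 0.17 on average in the mutant, with overlapping groups (exact permutation test, two-sided, p = 0.3, adjusted p = 0.6), and without mutant 1 the change was -0.098. The adjustment is over 6 pairs of genes, and with 3 samples against 3 no p can be below 0.1. The Suv39h1 and Suv39h2 pair could not be compared.

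Trim28, the corepressor that links KRAB zinc-finger proteins to SETDB1, was at 8.77, 8.78 and 8.74 in wildtype pools and 8.65, 8.83 and 8.83 in mutant pools. Mutant 1 was the lowest and the other two mutant samples the highest of the 6. The mean difference was 0.0067 (SE 0.069, 95% confidence interval -0.16 to 0.17; limma, adjusted p = 0.972). The wildtype SD was 0.021 and the mutant SD 0.10. The log2 gap between Setdb1 and Trim28 changed by -0.083, from 0.74, 0.82 and 0.86 to 0.82, 0.68 and 0.67 (exact permutation test, two-sided, p = 0.3, adjusted p = 0.6), and without mutant 1 it changed by -0.13.

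Neither subunit of the G9a and GLP dimer passed. Ehmt1 (GLP) was at 6.67, 6.69 and 6.69 in wildtype pools and 6.71, 6.60 and 6.39 in mutant pools. Its wildtype samples nearly coincided, while the mutant samples spread on both sides of them. The log2 difference was -0.12 (SE 0.088, 95% confidence interval -0.32 to 0.091; limma, adjusted p = 0.579), and it was -0.028 without mutant 3 and -0.19 without mutant 1.

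Ehmt2 (G9a) was at 4.98, 5.15 and 5.02 in wildtype pools and 5.16, 5.15 and 5.00 in mutant pools, not far above the background guide of 4.48. The groups overlapped over nearly their whole range. Its difference was 0.053 (SE 0.075, 95% confidence interval -0.12 to 0.23; limma, adjusted p = 0.776). It was 0.018 without wildtype 1 and 0.105 without mutant 3, and its sign turned in 3 settings that normalize the arrays again: -0.0053 after quantile normalization, -0.011 after cyclic loess and -0.0033 after median centring. For a signal this near background, array values can understate a true change. Within an array, Ehmt1 minus Ehmt2 was 1.69, 1.54 and 1.67 in wildtype pools and 1.55, 1.45 and 1.39 in mutant pools. The groups overlapped by 1 sample, wildtype 2 lying below mutant 1, and the mean gap changed by -0.17 (exact permutation test, two-sided, p = 0.2, adjusted p = 0.6). The change was -0.091 after quantile normalization and -0.10 after cyclic loess.

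**Figure D2:**
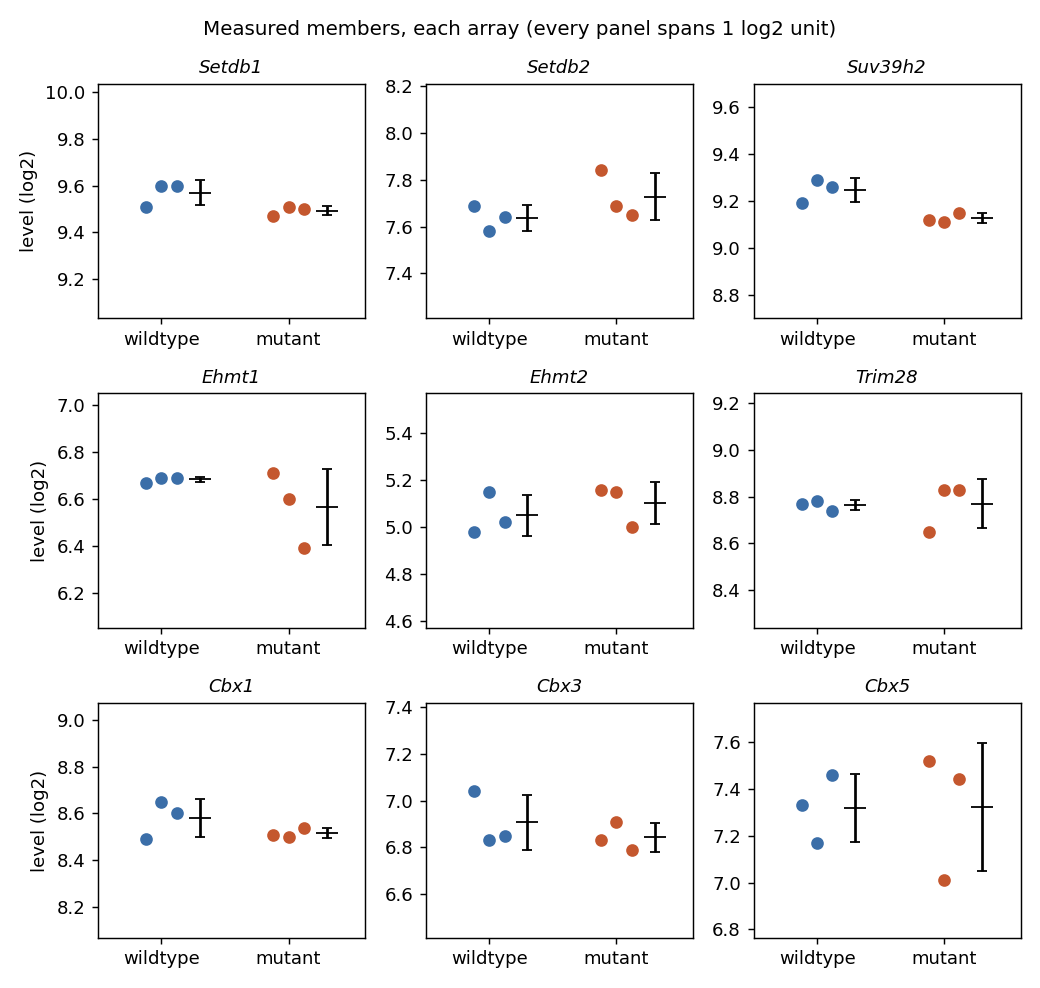
Log2 level of the 9 measured genes on each array (points; replicates 1 to 3 from left to right), with the group mean and SD (black), n = 3 per group. Each panel spans 1 log2 unit on its own scale; only Suv39h2 has groups that do not overlap, and the mutant samples of Cbx5 spread from 7.01 to 7.52.

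Of the HP1 genes, which encode the readers of methylated H3K9, none passed. Cbx1 (HP1β) was at 8.49, 8.65 and 8.60 in wildtype pools and 8.51, 8.50 and 8.54 in mutant pools. The mutant samples lay close together just above wildtype 1 and below the other wildtype samples. Its log2 difference was -0.063 (SE 0.062, 95% confidence interval -0.21 to 0.085; limma, adjusted p = 0.677). It was -0.028 without wildtype 2 and -0.11 without wildtype 1, and -0.12 after median centring and -0.013 after quantile normalization.

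Cbx5 (HP1α) was at 7.33, 7.17 and 7.46 in wildtype pools and 7.52, 7.01 and 7.44 in mutant pools. Mutant 1 and mutant 2 were the highest and the lowest of the 6, and the mutant SD of 0.27 was the largest of the 9 genes. The difference was 0.0033 (SE 0.15, 95% confidence interval -0.34 to 0.35; limma, adjusted p = 0.994). An interval this wide leaves room for a change of up to 1.27-fold either way, the least precise value of the list.

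Cbx3 (HP1γ) was at 7.04, 6.83 and 6.85 in wildtype pools and 6.83, 6.91 and 6.79 in mutant pools on its brightest probe set. Only wildtype 1 stood above the mutant samples. Its log2 difference was -0.063 (SE 0.077, 95% confidence interval -0.25 to 0.12; limma, adjusted p = 0.738), and without wildtype 1 it was 0.0033.

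Cbx3 was also the 1 gene of the list with several probe sets, 7 in all. The other 6 were dimmer, with wildtype means from 4.63 to 5.44, and 2 of them held the same values on every array, so 6 different sets of values remained. Their log2 differences ran from -0.090 to 0.017, and all 7 had overlapping groups and limma adjusted p-values of 0.601 to 0.945. On probe set 10421573 the mutant samples were at 5.35, 5.35 and 5.36, within the wildtype range of 5.31 to 5.51. On probe set 10405888, the dimmest, mutant 1 was at 4.50, next to the background guide. Which copies of the sequence each probe set reads is not stated, so the level of Cbx3 is uncertain, while the 7 probe sets gave no call.

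**Figure D3:**
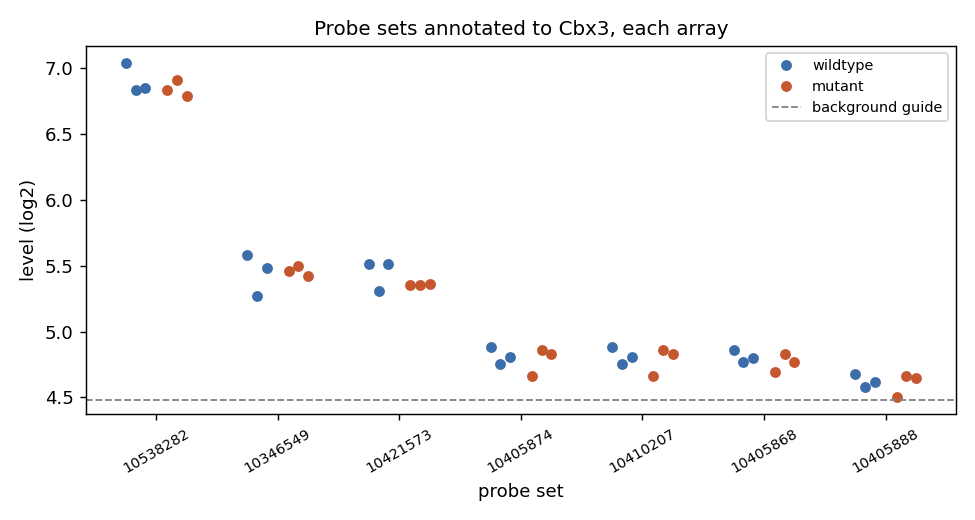
Log2 level of the 7 probe sets annotated to Cbx3 on each array (wildtype in blue, mutant in orange), from brightest to dimmest, with the background guide of 4.48 as a dashed line. The groups overlap on every probe set, and probe sets 10405874 and 10410207 hold the same values.

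Within arrays, the log2 gaps between HP1 genes did not separate the groups either. Cbx1 minus Cbx3 averaged 1.67 in both groups, a change of 0 (exact permutation test, two-sided, p = 1, adjusted p = 1). The mean change was -0.067 for Cbx1 minus Cbx5 (exact permutation test, two-sided, p = 0.6, adjusted p = 0.9) and -0.067 for Cbx3 minus Cbx5 (exact permutation test, two-sided, p = 0.8, adjusted p = 0.96). Cbx3 minus Cbx5 was -0.29, -0.34 and -0.61 in wildtype pools and -0.69, -0.10 and -0.65 in mutant pools, so the mutant samples enclosed the wildtype ones.

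Genes related to the list were taken in 6 further lists of 74 genes, of which 63 were measured. They include enzymes that remove H3K9 methylation and genes silenced by it. Over all probe sets 0 of the 63 passed (limma; smallest adjusted p = 0.122). At an unadjusted limma p under 0.05 there were 11 of 63, 5 higher and 6 lower in the mutant, or 17.5% against 14.9% of all genes (7.53% higher, 7.33% lower). Groups did not overlap at 13 of 63, or 20.6%, against 19.8% (10.5% with the mutant above, 9.33% below). Both shares lie near those of all genes. The median log2 difference of the 63 was -0.013, with 30 means higher and 33 lower. Over all 19938 genes the median was 0.013, with 10655 means higher and 9077 lower. Over the 9800 genes with a mean above the median level, the median was -0.03. The directions within each list below were not tested against these. Of the related genes named below, several differences moved by over 1.5 times without 1 array. Without wildtype 1, Kdm4a was at -0.077, Morc2a at 0.092 and Tasor2 at 0.028, and without wildtype 3 Morc2a was at 0.25 and Tasor2 at 0.12. Without wildtype 2, Kdm3b was at -0.072 and Zfp644 at 0.16, without mutant 1 Tasor at 0.14 and Tcstv3 at 0.13, and without mutant 3 Smarcad1 at -0.15.

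The list of Trim28 relatives and the KRAB zinc-finger proteins that bring it to DNA held the smallest p-value. Zfp809, which silences murine leukaemia virus sequences through TRIM28, was at 6.13, 6.11 and 6.13 in wildtype pools and 5.85, 5.70 and 5.75 in mutant pools. Its groups were well apart against the spread within them, with a log2 difference of -0.36 (SE 0.061; limma, unadjusted p = 0.000658, adjusted p = 0.122). Zfp708, another KRAB zinc-finger gene, was at 6.85, 6.66 and 7.07 against 6.30, 6.12 and 6.45, a difference of -0.57 (SE 0.127; limma, adjusted p = 0.155). Trim24, a relative of Trim28, was at 9.08 to 9.11 in the wildtype and 8.98 to 9.02 in the mutant, a difference of -0.093 (limma, adjusted p = 0.450). All 3 had mutant samples below every wildtype sample and none passed over all probe sets. In the whole list, 7 of 9 measured means were lower, with a median of -0.077. Zfp57, which guards imprinted loci with TRIM28, was at -0.017 and Zfp445, which does so too, at -0.080 (limma, adjusted p = 0.905 and 0.775).

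Cofactors and relatives of the H3K9 methyltransferases had 9 of 12 means lower in the mutant, with a median of -0.048 and 0 passing. Atf7ip2, a relative of the SETDB1 partner ATF7IP, had the largest difference of all 63 genes. It was at 7.31, 7.13 and 7.21 in wildtype pools and 6.62, 6.29 and 6.84 in mutant pools, which did not overlap (log2 difference -0.63, SE 0.138; limma, unadjusted p = 0.00263, adjusted p = 0.152). Atf7ip itself was at 0.13 (limma, adjusted p = 0.443). Smyd5, a SET domain gene, was at -0.39 (limma, adjusted p = 0.253) and Zfp644, a partner of the G9a and GLP dimer, at 0.30 (limma, adjusted p = 0.438), both with overlapping groups.

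The HUSH complex recruits SETDB1 activity to young retrotransposons. The list of it and of genes related to it had 3 of 4 measured means higher, with a median of 0.11. The scaffold gene of the complex, Tasor, was at 6.83, 6.81 and 6.88 in wildtype pools and 7.22, 6.92 and 7.03 in mutant pools, all above the wildtype (log2 difference 0.22, SE 0.085; limma, adjusted p = 0.309). Morc2a, an ATPase that works with the complex, was at 0.15 and Tasor2 at 0.073 (limma, adjusted p = 0.513 and 0.683), with overlapping groups. The remaining measured gene, Pphln1, was at -0.023 with overlapping groups (limma, adjusted p = 0.876), and Mphosph8 was not measured.

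Enzymes that remove H3K9 methylation divided evenly, with 6 of 11 means higher and 5 lower and a median of 0.033. Jmjd1c, of the KDM3 family, was at 6.47, 6.69 and 6.94 in wildtype pools and 7.17, 6.92 and 7.09 in mutant pools (log2 difference 0.36, SE 0.128; limma, adjusted p = 0.280). Wildtype 3 lay just above mutant 2, so the groups overlapped. Averaged over the probe sets of Jmjd1c, the difference was 0.33 (SE 0.173; limma, adjusted p = 0.418). Its relative Kdm3b was at -0.16 and Kdm4a, which removes trimethylation, at -0.15 (limma, adjusted p = 0.450 and 0.412). Kdm4a was the 1 demethylase gene whose groups did not overlap, at 8.08, 7.87 and 7.87 in wildtype pools and 7.81, 7.77 and 7.80 in mutant pools.

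HP1 partners and other heterochromatin genes had 9 of 17 means higher and 8 lower, with a median of 0.033. Kmt5c, an H4K20 methyltransferase that HP1 brings to heterochromatin, was at 5.23, 5.20 and 5.25 in wildtype pools and 5.33, 5.44 and 5.41 in mutant pools (log2 difference 0.17, SE 0.057; limma, adjusted p = 0.268). Smarcad1, a remodeller that helps keep H3K9 methylation through replication, was at 8.21, 8.29 and 8.24 against 8.08, 8.12 and 7.85 (difference -0.23, SE 0.083; limma, adjusted p = 0.284). Neither pair of groups overlapped. Nipbl, the cohesin loader, was at 0.19 (limma, adjusted p = 0.322), with overlapping groups.

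Genes known in embryonic stem cells as silenced by H3K9 methylation were mostly dim: of 18 listed, with Dppa3 added as a protein that binds chromatin with methylated H3K9, 10 were measured and 3 had a mean above the background guide. Dppa3, abundant in oocytes, was at 11.53, 11.53 and 11.47 in wildtype pools and 11.59, 11.58 and 11.68 in mutant pools (log2 difference 0.11, SE 0.058; limma, adjusted p = 0.443). Tcstv3, of a family expressed at the stage after fertilisation when the embryonic genome is first read, was at 8.81, 8.80 and 8.82 against 9.15, 9.02 and 8.86. All mutant samples of both genes were above the wildtype ones, and the difference of Tcstv3 was 0.20 (SE 0.081; limma, adjusted p = 0.323). Tdpoz2, of a family transcribed in early embryos, was at -0.18 from a wildtype mean of 4.68, close to the background guide (limma, adjusted p = 0.319). Averaged over the probe sets of Tdpoz2, the difference was -0.12 (limma, adjusted p = 0.400). The median of the 10 was 0.070, with 7 means higher and 3 lower.

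**Figure D4:**
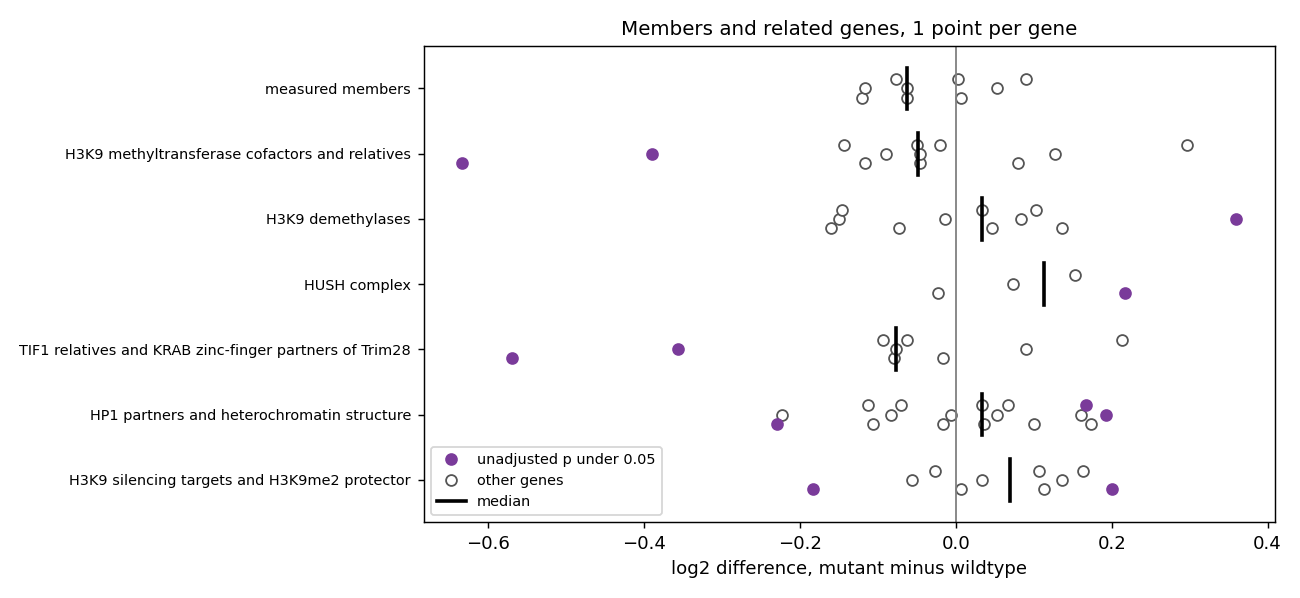
Log2 difference, mutant minus wildtype, of the 9 measured genes of the list (top) and of 63 related genes in 6 lists, 1 point per gene, with the median of each list as a bar. Filled points have an unadjusted limma p under 0.05 (0 of 9 and 11 of 63), and none passed the adjusted threshold.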

How the data were processed

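The deposited table held 35556 probe sets on 6 Affymetrix arrays. Its log2 values were made by the authors with Affymetrix Expression Console 1.1 and RMA, per the submitters' processing notes. RMA evens out the arrays' distributions, but small differences between the groups remained. Medians were 4.69 to 4.71 in wildtype and 4.71 to 4.79 in mutant arrays. Upper quartiles were 7.1 to 7.12 in wildtype and 7.04 to 7.09 in mutant arrays, which did not overlap. RMA and the amplification of 1 ng of RNA, per the labels' protocols, can compress differences near background. The arrays' genome build was not given in the sources used.

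Differences were fitted with limma 3.58.1 in R 4.3.3 (lmFit, eBayes, two-sided) on the 23410 probe sets with a symbol, with no covariate or filter, and adjusted over all of them by Benjamini-Hochberg. The fit was tested on simulated data. The number of arrays limits the precision.

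All genes and lists were chosen with earlier results of these data known. Genes named by rule were the list, Brwd1, the 3 with the smallest p-values of each related list, the 3 most like Suv39h2 and the 2 brightest of each marker list. Zfp57, Zfp445, Atf7ip, Pphln1 and the other marker genes named were added after their values were seen. Alternatives covered the replicate block, 3 normalizations, 2 level filters, the variance model, array weights, the probe sets tested or averaged and each array left out. Counting repeated probe sets once was chosen after seeing the data.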

Additional observations from a re-analysis of the deposited data

How the results depend on the processing

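No gene of the list and none of the 63 related genes passed in the setting reported or in any of the 17 alternatives; the filter above the median level kept 8 of the 9 genes (not Ehmt2) and 46 of the 63. The median log2 difference of the measured genes ran from -0.062 to 0.0033 without 1 array, the last without wildtype 1. Signs that turned, all far from the threshold, were those of Ehmt2 (-0.0053 after quantile normalization, -0.011 after cyclic loess, -0.0033 after median centring), and of Trim28 at -0.050 and Cbx5 at -0.053 after median centring, a setting that moved the median of all genes from 0.013 to -0.043. Without 1 array, Trim28 ran from -0.023 to 0.067, Cbx5 from -0.095 to 0.16, Cbx3 from -0.10 to 0.0033, Cbx1 minus Cbx5 from -0.21 to 0.043 and Cbx3 minus Cbx5 from -0.26 to 0.038. After median centring Suv39h2 was the 1 gene of the 9 with an unadjusted p under 0.05. The count of probe sets that passed, 32 in the setting reported, did depend on the setting: it was 76 with trend and robust eBayes, 1 with all probe sets of the table, 1 with repeated probe sets counted once and 1 to 18 without 1 array, and the cause was not tested. By array, it was 1 without wildtype 1, wildtype 2 or mutant 1, 18 without wildtype 3, 3 without mutant 2 and 10 without mutant 3. The 11 related genes with an unadjusted p under 0.05 became 5 without wildtype 2, 6 without mutant 3, and 7 without wildtype 1 or mutant 1. With the replicate number as a block 1 probe set passed and 0 genes of the list. Over all probe sets with a symbol, samples with the same number did not deviate together (r = -0.0015, -0.031 and 0.036). This cannot show whether they share more than a number. The block lowered the SE of some genes, as of Cbx5 from 0.146 to 0.089 and of Zfp708 from 0.127 to 0.062. It raised that of others, as of Setdb1 from 0.056 to 0.061. Levels of Ehmt2 and of most silencing targets lie near background, which limits what their differences can show.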
